A study of Mus musculus with 5 samples.

Results

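Among 1 kb bins of chromosomes 1 to 19 in mouse embryonic stem cells, a small set was rich in signal of the antibody to 5-hydroxymethylcytosine (5hmC) and yet missed by capture with a methyl-CpG binding domain (MBD). A bin belonged to the set when its hMeDIP ratio to input was 3 or more and its ratio in both MethylCap eluates was below 1. The ratio was (RPM + 0.5)/(input RPM + 0.5), where RPM is reads per 1000000 reads on chromosomes 1 to 19 and X. The rule gave 4261 bins of 2297452 autosomal bins with a read (0.185%), which was 9.09% of the 46852 bins rich in 5hmC signal (2.04% of bins with a read). Positions are in mm9, and the bins are named by position because no gene models of that build were used.

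The libraries were hMeDIP with 2 µg of the 5hmC antibody, MeDIP with as much antibody to 5-methylcytosine (5mC), MethylCap eluates at 600 and 800 mM NaCl, and an input, with 1 library of each. The labels give the source of the 4 enriched libraries as SIGTR gene-trap clones of the E14 line at passages 11 to 14. The labels do not say whether these were 1 clone or several. For input, chromatin DNA came from TNG-A cells, an E14 line with an EGFP reporter at Nanog. All cells were grown without feeders in 10% fetal calf serum and leukaemia inhibitory factor. A difference between the lines cannot be told apart from enrichment over input.

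5hmC is made from 5mC by the TET dioxygenases and is present in embryonic stem cells. Most cytosine methylation in mammals lies in CpG dinucleotides, which read the same on both strands, so a methylated CpG usually carries the mark on each strand. The MBD binds methylated CpG in double-stranded DNA and binds 5hmC poorly, whereas antibodies to modified cytosine are used on denatured, single-stranded DNA. Per the labels' protocols, the DNA was denatured for both antibodies, and no denaturation is given for MethylCap.

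Each group had a single library, so conditions could not be tested against each other and no difference had a replicate check. Intervals are exact 95% Clopper-Pearson intervals of shares and of raw read ratios. They describe counting error alone: the reads had no molecular identifiers, so they need not be separate molecules, and neighbouring bins are not independent. The libraries held 7507520 to 18676265 reads on the chromosomes used, and the start positions on each strand held at most 2 reads in the eluates and at most 1 in the other libraries. This caps dense signals.

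The values that chose the members are a description. A member held 22 to 292 hMeDIP reads with a median of 45, against 1 to 40 input reads with a median of 6. Summed over the 4261 bins, hMeDIP was 8.33-fold over input (8.23 to 8.44). The 600 mM eluate was at 0.401-fold (0.390 to 0.413) and the 800 mM eluate at 0.306-fold (0.295 to 0.318). For the eluates, the median member held 1 read at 600 mM and 0 at 800 mM, and 1096 members (25.7%) held no read of either. Such low counts do not show that methylated CpG was absent from a single bin. Over all 1353765 autosomal bins below input in both eluates, which were 58.9% of the bins with a read, the eluates were at 0.222-fold and 0.180-fold.

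The highest member by hMeDIP ratio lay on chromosome 5 at 36614001–36615000 (19.8-fold). It held 291 hMeDIP reads on the plus strand and 1 on the minus strand, 45 and 2 MeDIP reads on these strands, and 3 and 3 input reads. Both antibodies thus read almost 1 strand only, while the few input reads were divided equally. The plus-strand hMeDIP reads were spread over the bin, with the middle 80% of their 5′ ends within 799 bp.

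The member ranked next, on chromosome 11 at 5971001–5972000, had the opposite strand. It held 3 plus and 260 minus reads in hMeDIP and 1 plus and 114 minus reads in MeDIP, against 1 read at 600 mM and 0 at 800 mM. On chromosome 4 at 154062001–154063000 there were 3 plus and 246 minus hMeDIP reads, 0 plus and 81 minus MeDIP reads, while both eluates had none. Input there held 5 plus and 2 minus reads. The pattern of many antibody reads on 1 strand was the same in these bins.

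All 10 members with the highest hMeDIP ratio had 80% or more of their hMeDIP reads on 1 strand, and in all 10 the larger MeDIP strand was the same as the larger hMeDIP strand. They held 167 to 292 hMeDIP reads, 21 to 115 MeDIP reads, 0 to 3 reads at 600 mM, 0 to 2 at 800 mM and 5 to 9 input reads. The plus strand was the larger in 3 of them and the minus strand in the others. One pair was adjacent, on chromosome 3 at 156096001–156097000 and 156097001–156098000. The first bin of the pair held 5 plus and 198 minus hMeDIP reads and the next 1 plus and 195 minus, so the strand was shared across the boundary. The least one-sided of the 10 was a bin on chromosome 3 at 122011001–122012000, with 27 plus and 161 minus reads in hMeDIP and 18 plus and 96 minus in MeDIP.

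**Figure D1:**
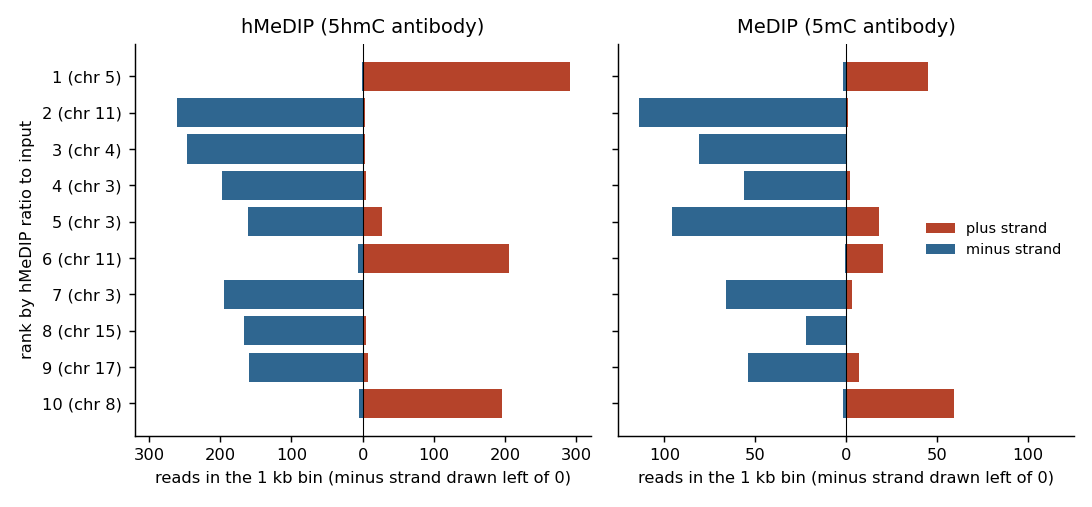
Reads on each strand in the 10 members with the highest hMeDIP ratio to input. Each row is 1 bin of 1 kb, named by its rank and chromosome. Bars to the right of 0 are plus-strand reads and bars to the left are minus-strand reads, in hMeDIP (left panel) and MeDIP (right panel, with its own scale). In every row the longer bar points the same way in both panels, from 291 plus reads in the first row to 260 minus reads in the second.

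MeDIP was not part of the rule, although it shares the input with it. Members held 0 to 121 MeDIP reads with a median of 13, and summed over the members MeDIP was 4.46-fold over input (4.40 to 4.53). A MeDIP ratio of 3 or more was reached by 941 of the 4261 members (22.1%), against 2.64% of all autosomal bins with a read and 0.11% of those below input in both eluates. Among bins rich in 5hmC signal the members were the lower ones in MeDIP, since that ratio was reached by 44.9% of all such bins, 58.2% of those at 3-fold or more in an eluate and 37.2% of the remaining ones. The summed MeDIP values of these groups were 7.23-fold, 9.62-fold and 5.91-fold. These 941 bins were 63.3% of the 1486 bins that the 5mC antibody enriched and both eluates missed. Most of the bins missed by MBD but rich with the 5mC antibody were therefore also rich with the 5hmC antibody. Of all autosomal bins below input in both eluates, 0.315% were. Both ratios divide by the same input, and this overlap was not measured with divided input. At the other end, 196 members (4.60%) were below input in MeDIP, where 61.4% of all autosomal bins with a read were below it. The share at 3-fold or more followed the threshold on hMeDIP and was 5.29% with members called at a ratio of 2 and 67.9% at a ratio of 5.

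Across the 19 autosomes the summed MeDIP value of the members ranged from 4.18-fold to 4.72-fold, so the excess was present on each of them. Because the rule divides by input, it favours bins where input happened to be sampled low. Members were therefore also called with a random part of input (4169 bins) and measured against the remaining part, where hMeDIP was 7.15-fold (7.03 to 7.27) and MeDIP 3.80-fold (3.73 to 3.87) over input. The eluates were at 0.357-fold and 0.252-fold there. Only input was divided, and the hMeDIP and eluate reads measured were those that the rule had chosen as high and low. High hMeDIP and low eluates therefore still followed from the rule, and the division removes only the choice of low input. Bin by bin the rule was met again by 1909 (45.8%) of these 4169 bins against the remaining part of input. All 4169 were above input in hMeDIP there, 3961 (95.01%) at 2-fold or more, and 3353 (80.4%) were again below input in both eluates. Members were also called with a random part of hMeDIP (4986 bins), and hMeDIP was 7.21-fold over input in the remaining part. Of these bins 2731 (54.8%) met the rule again. The eluate reads were not divided. Divided reads leave fewer counts per bin. The shares that met the rule again therefore do not show how near members lie to a threshold at full depth. Against the sampling of input and of hMeDIP, the set is firmer as a sum than as a list of single bins.

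Strand was not used by the rule, and most members had their hMeDIP reads on 1 strand. A bin was counted as one-sided when 80% or more of its reads lay on 1 strand. In hMeDIP 3482 of the 4261 members were one-sided (81.7%, 80.5 to 82.9), all members having at least 20 hMeDIP reads. Of the 20129 bins rich in 5hmC signal that were captured in at least 1 eluate at 3-fold or more, with the same minimum of reads, 5827 were (28.9%, 28.3 to 29.6). Over all 223155 autosomal bins with that many hMeDIP reads the share was 37.4%. It was 54.4% of the remaining bins rich in 5hmC signal and 56.9% of the 52692 bins below input in both eluates. In the bins that the 5mC antibody enriched and both eluates missed, 941 of which are members, it was 84.4% (82.3 to 86.3) of 1322. One-sided strands were thus not particular to the members. Captured bins had a median of 46 hMeDIP reads and members of 45, so depth in hMeDIP was alike. The share ranged from 75.3 to 87.6% of members across the 19 autosomes and from 24.4 to 36.6% of captured bins, so the ranges did not overlap.

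**Figure D2:**
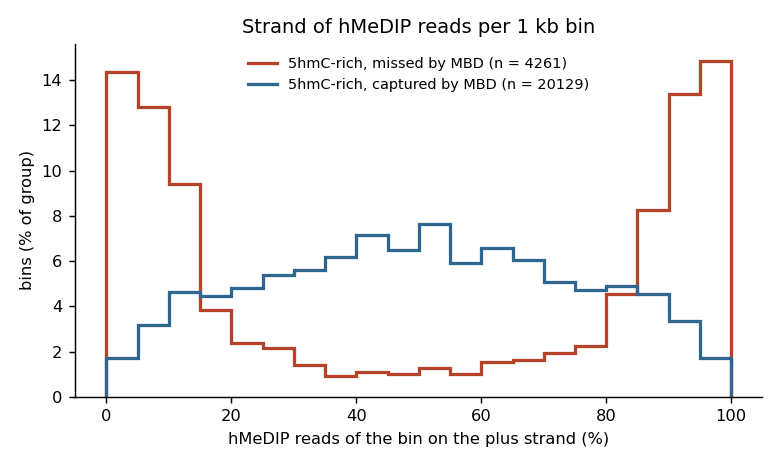
Share of a bin's hMeDIP reads on the plus strand (x axis, %, in steps of 5), as the percent of bins in each group (y axis). Bins missed by MBD (4261) pile up at both ends, with 14.4% of them under 5% and 14.9% at 95% or more, whereas the 20129 captured bins are most frequent between 50 and 55% (7.63% of them).

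Among the one-sided members the strands were equally frequent, with 1749 on the plus and 1733 on the minus strand. The median member had 91.3% of its hMeDIP reads on its larger strand, against 69.2% in captured bins. At a stricter limit of 90% on 1 strand, 2389 members (56.1%) and 10.1% of captured bins were one-sided. With exactly 20 hMeDIP reads drawn at random from each bin the shares were 83.1% and 34.9%. Counted over 3 kb centred on the bin they were 61.3% and 14.4%. This window includes the bin itself. In members hMeDIP was 8.33-fold over input in that bin and 1.79-fold and 1.84-fold in the bins beside it. The wider count therefore does not show the strand of the adjacent bins alone.

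The input did not show such strands. Of the 621 members with at least 10 input reads, 31 were one-sided in input (4.99%, 3.42 to 7.01), close to the 4.06% over all autosomal bins with that many. MethylCap reads were too few in members for such a count, with 4 bins at 10 or more reads in the 600 mM eluate, none of them one-sided. In the captured bins, 431 of 19563 were one-sided at 600 mM (2.20%) and 391 of 18327 at 800 mM (2.13%). One-sided strands were thus frequent in the antibody libraries and rare in the eluates and input.

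MeDIP showed the same strands as hMeDIP. Of 2760 members with at least 10 MeDIP reads, 2088 were one-sided in MeDIP (75.7%, 74.0 to 77.2), where the share was 43.2% over all autosomal bins with that many reads and 42.2% of captured bins. Where neither library was tied between strands, the larger MeDIP strand was that of hMeDIP in 2657 of 2729 members (97.4%, 96.7 to 97.9), against 86.9% of all autosomal bins with enough reads. Among those one-sided in hMeDIP it was the same in 2298 of 2307 (99.6%), near the 98.2% over all autosomal bins, 99.2% in captured bins and 99.1% in the remaining bins rich in 5hmC signal. Over the 2729 members Pearson's r of the plus-strand shares was 0.961 between hMeDIP and MeDIP and, over 526 members with enough input reads, 0.121 between hMeDIP and input. The points of 1 bin share its sequence, and the r is a description only. In captured bins MeDIP had the larger strand in common with hMeDIP in 87.1% of 16495 bins and the 600 mM eluate in 52.1% of 17818.

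**Figure D3:**
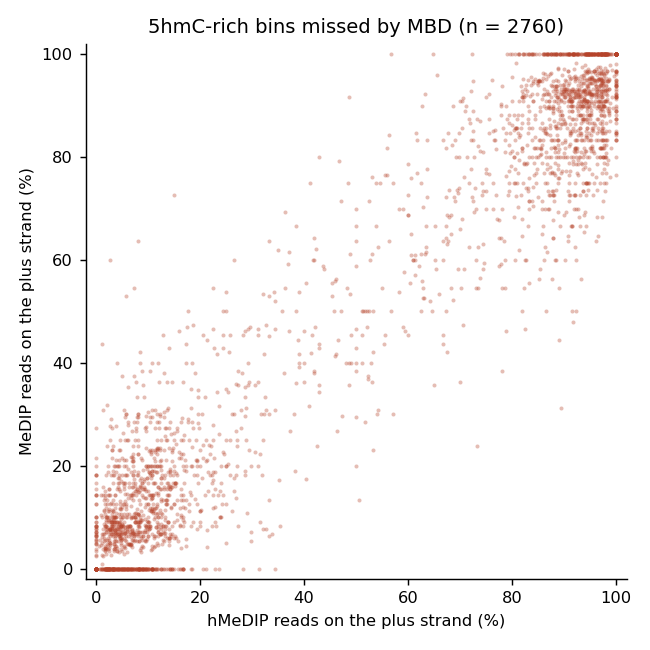
Share of reads on the plus strand in hMeDIP (x axis, %) and in MeDIP (y axis, %) for the 2760 members with at least 10 MeDIP reads, 1 point per bin. Points gather in the lower left and upper right corners, where both antibodies read the same strand, with r = 0.961 over the 2729 bins without a tie.

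Over all bins rich in 5hmC signal with at least 20 hMeDIP reads, the one-sided share fell with each step of the larger eluate ratio. It was 92.5% (81.8 to 97.9) of the 53 bins in which the larger of the eluate ratios was under 0.5 and 81.6% of the 4208 bins between 0.5 and 1, which together are the members. It was 71.2% between 1 and 1.5, 56.1% between 1.5 and 2 and 43.1% between 2 and 3. It then fell to 31.9% between 3 and 5, 25.6% between 5 and 8 and 19.2% (17.5 to 21.0) at 8 or more. The share thus changed gradually across the boundary that defines the members. The step under 0.5 also depends on input depth. With the pseudocount of 0.5 RPM, even a bin without an eluate read falls there only if its input is above 0.5 RPM. Members without any eluate read were 83.5% one-sided and those with an eluate read 81.1%. The step under 0.5 is therefore not simply the set of least captured bins. MeDIP went the other way, from 2.61-fold and 4.52-fold over input among the members to 15.7-fold in bins at 8 or more. The 2.61-fold rests on the same 53 bins. Members without any eluate read were higher in MeDIP than those with one, at 5.17-fold against 4.32-fold. The hMeDIP value also rose, though not at each step, from 5.95-fold in the first step to 13.4-fold in the last. Its part in the rise of MeDIP was not tested. The median number of hMeDIP reads was 42 to 48 in every step but the first, where it was 69.

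**Figure D4:**
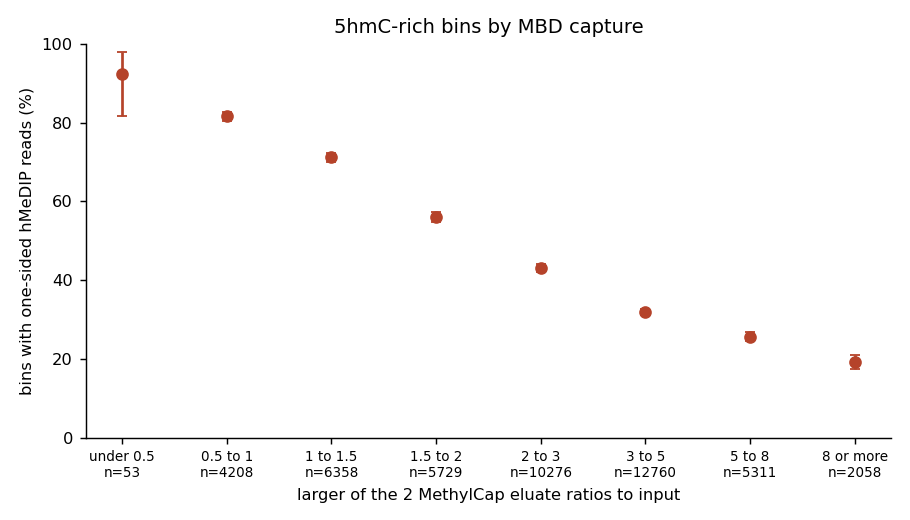
Percent of 5hmC-rich bins with one-sided hMeDIP reads (y axis) by the larger of the eluate ratios to input (x axis, with the number of bins under each step). Points are shares and bars exact 95% intervals for counting error. The share falls at each step, from 92.5 to 19.2%.

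The reads of the one-sided members formed a narrow peak. Each of the 3482 bins was aligned at the median 5′ end of the hMeDIP reads on its larger strand, which fixes the place of the hMeDIP peak but not that of the other libraries. Within 200 bp of this point hMeDIP held 5.29 RPM per kb on the larger strand, 16.5 times the level at 1000 to 2000 bp, and 0.225 on the other strand, 0.946 times that level. MeDIP held 2.71 on the larger strand, 9.85 times its flanks, and 0.183 on the other, 0.812 times. The MeDIP peak therefore stood at the same place and on the same strand. In the median one-sided member the middle 80% of larger-strand 5′ ends of hMeDIP lay within 329.9 bp. Such a peak was not particular to the members. In the 5827 one-sided captured bins, aligned in the same way, hMeDIP was 13.1 times and MeDIP 13.3 times its flanks on the larger strand. On the other strand they were 1.08 and 1.37 times, and the median span was 405.9 bp.

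The rule chose these members for low eluates in the bin, so a dip of the eluates there follows from it and is given as a description. The 600 mM eluate was at 0.364 times its flanks on the larger hMeDIP strand and 0.300 on the other, and the 800 mM eluate at 0.274 and 0.224. Input was also lower there, at 0.791 and 0.764 times its flanks. Its lowest step of 50 bp on the other strand began 200 bp downstream, at 0.125 RPM per kb. Fewer input reads at the centre raise every ratio to input, and their part in the ratios was not tested beyond the divided input above.

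**Figure D5:**
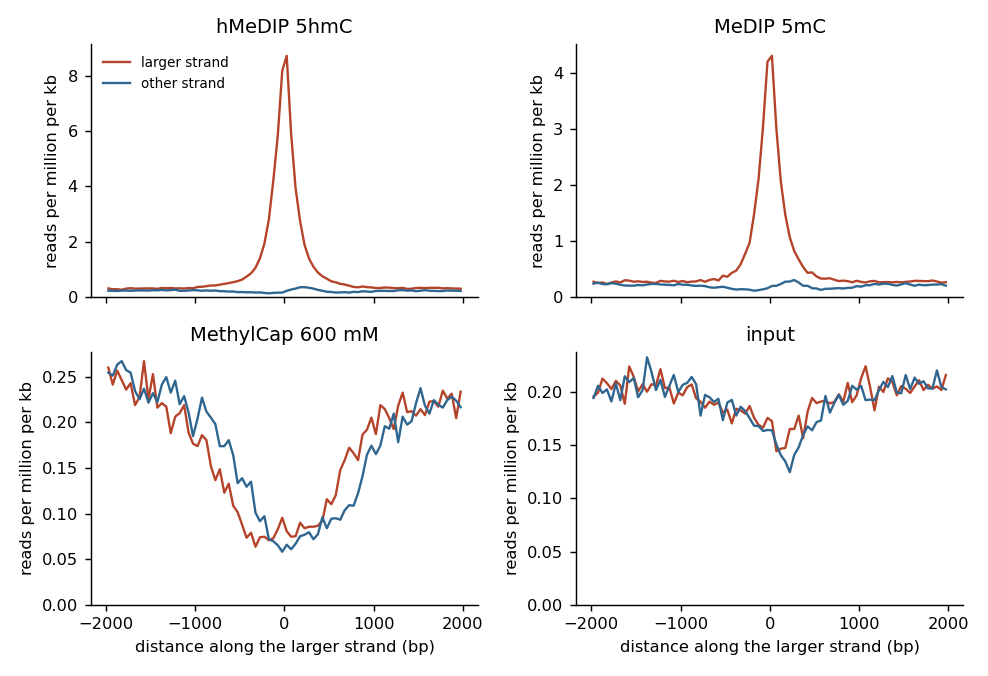
RPM per kb in steps of 50 bp (y axis, own scale per panel, starting at 0) against distance along the larger hMeDIP strand (x axis, bp) for the 3482 one-sided members, in hMeDIP, MeDIP, the 600 mM eluate and input. hMeDIP reaches 8.72 and MeDIP 4.31 on the larger strand near 0 while their other strand stays low, and the 600 mM eluate and input dip on both strands.

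The rule fixed high hMeDIP and low eluates in the member bin itself, so the fall of hMeDIP and the rise of the eluates beside it are descriptions. In the adjacent bins hMeDIP was 1.79-fold and 1.84-fold over input and MeDIP 1.43-fold and 1.40-fold, and at 10 kb hMeDIP was 1.29-fold and 1.32-fold and MeDIP 1.24-fold and 1.27-fold. The 600 mM eluate was 1.01-fold and 0.982-fold in the adjacent bins and 1.27-fold and 1.33-fold at 10 kb. The 800 mM eluate was 0.943-fold (0.923 to 0.963) and 0.949-fold (0.930 to 0.969) in the adjacent bins, below input on both sides, and 1.24-fold and 1.28-fold at 10 kb. Around captured bins the surroundings were higher, with hMeDIP at 2.01-fold and 2.02-fold and the 600 mM eluate at 2.53-fold and 2.50-fold at 10 kb.

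A bin at 3-fold or more in an eluate lay within 5 kb of 1402 members (32.9%, 31.5 to 34.3), where 29.1% of all autosomal bins with a read had such a neighbour. The share was 16.1% for bins below input in both eluates and 81.0% for captured bins. Within 1 kb it was 8.21% of members (7.41 to 9.08) against 9.96% of all these bins, and within 20 kb 65.7% (64.3 to 67.1) against 55.4%. The members' share was thus below that of the autosomal bins as a whole at the shortest distance and above it at the longest, and these differences were not tested over replicates. At each distance it was above that of bins below input in both eluates, which was 3.20% within 1 kb and 41.5% within 20 kb.

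Members were mostly single, but at 0.185% of bins with a read most would be single even if placed at random. There were 101 adjacent pairs of members, and no comparison with random placement was made. They formed 4160 runs, of which 4069 were 1 bin long (97.8%), 84 were 2 bins long, 6 were 3 and 1 was 6. The longest, on chromosome 7 at 51731001–51737000, held 274 plus and 55 minus reads in hMeDIP and 135 plus and 33 minus in MeDIP. It was 20.7-fold over input in hMeDIP (12.6 to 36.7) and 18.8-fold in MeDIP (11.2 to 33.6), with 1 read at 600 mM, 0 at 800 mM and 16 input reads over 6 kb. On chromosome 14 at 27568001–27571000 a run of 3 bins held 9 plus and 459 minus hMeDIP reads and 5 plus and 106 minus MeDIP reads (17.5-fold and 7.35-fold). Reads of 1 strand thus continued across several bins.

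The other runs of 3 bins that were chosen by length and hMeDIP reads differed in MeDIP. On chromosome 7 at 46839001–46842000 hMeDIP was 6.20-fold with 19 plus and 276 minus reads and MeDIP 1.94-fold (1.28 to 2.93). On chromosome 14 at 20880001–20883000 they were 8.89-fold, with 218 plus and 20 minus hMeDIP reads, and 3.44-fold. On chromosome 9 at 89854001–89857000 hMeDIP was 7.09-fold with 6 plus and 212 minus reads, while MeDIP was 1.15-fold, with an interval of 0.623 to 2.09 that includes the input level. The MeDIP reads of these runs also lay mostly on the larger hMeDIP strand, with 1 plus and 19 minus in the last. Strong 5hmC antibody signal on 1 strand therefore did not always come with 5mC antibody signal over input when both strands were summed. A fold per strand was not computed.

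Neighbouring members shared a strand only at short range. Of 81 adjacent pairs in which both bins were one-sided, 76 had the same strand (93.8%, 86.2 to 98.0), and of 52 pairs 2 to 5 kb apart 37 did (71.2%, 56.9 to 82.9). At 6 to 20 kb it was 53.5% of 114 pairs and at 101 to 500 kb 49.1% of 1107. The interval at each of these longer distances included 50%. The median gap from a member to the next on the chromosome was 324 kb, and 460 members (10.8%) had another within 10 kb.

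The members were found on every autosome. Chromosomes 7, 5 and 10 had the highest share of bins that were members, at 0.267%, 0.226% and 0.213%, and chromosomes 12, 3 and 15 the lowest, at 0.153%, 0.161% and 0.164%. Chromosome 5 was also high in bins rich in 5hmC signal as a whole (2.96%). As a share of those, members made up from 6.41% on chromosome 4 to 14.1% on chromosome 14. Of their bins, 1.21% on chromosome 14 and 2.57% on chromosome 4 were rich in 5hmC signal.

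The 779 members that were not one-sided in hMeDIP were lower with both antibodies. Their MeDIP value was 3.80-fold over input (3.67 to 3.94) against 4.61-fold (4.54 to 4.69) in the one-sided members, their hMeDIP value 7.49-fold against 8.52-fold, and 14.4% against 23.8% reached a MeDIP ratio of 3. Their eluates were at 0.464-fold and 0.386-fold, against 0.387-fold and 0.288-fold. A captured bin lay within 5 kb of 39.5% (36.1 to 43.1) of them and of 31.4% (29.9 to 33.0) of the one-sided ones. Bins with reads on both strands thus held somewhat more MBD signal and less of the antibodies.

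Members without any eluate read were similar to the rest in strand. Of these 1096 bins 915 were one-sided (83.5%, 81.2 to 85.6), and of the 3165 members with an eluate read 2567 were (81.1%, 79.7 to 82.5). MeDIP was 5.17-fold and 4.32-fold over input. The bins without an eluate read had a median of 3 input reads against 6 in the others, so they also had the least depth.

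By MeDIP, strands differed more. Of the 941 members at 3-fold or more in MeDIP 829 were one-sided in hMeDIP (88.1%, 85.9 to 90.1), of the 3320 under 3-fold 2653 were (79.9%, 78.5 to 81.3), and of the 196 below input 141 were (71.9%, 65.1 to 78.1). These groups also differed in hMeDIP, at 10.8-fold, 7.63-fold and 6.28-fold over input. The part of hMeDIP in the shares was not tested. The member with the lowest MeDIP ratio, on chromosome 2 at 173074001–173075000, held no MeDIP read, 18 plus and 37 minus hMeDIP reads and 10 input reads. On chromosome 9 at 75213001–75214000 there were 28 plus and 31 minus hMeDIP reads and 2 MeDIP reads. Another bin on the same chromosome, at 89855001–89856000, is the middle bin of the run at 89854001–89857000 described above. It held 4 plus and 89 minus hMeDIP reads, 3 MeDIP reads, all on the minus strand, and none of either eluate. The members lowest in MeDIP therefore included bins with balanced and with one-sided strands.

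The members highest in MeDIP were one-sided in both antibody libraries. On chromosome 3 at 122011001–122012000 MeDIP was 14.9-fold, with 114 reads, and on chromosome 11 at 31628001–31629000 it was 9.96-fold, with 104 plus and 4 minus reads beside 181 plus and 6 minus reads in hMeDIP. On chromosome 14 at 9624001–9625000 MeDIP was 8.88-fold, with 4 plus and 62 minus reads beside 10 plus and 139 minus in hMeDIP. The remaining bins of this group, on chromosomes 11 and 4, are among those described above with the highest hMeDIP ratio.

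The bins nearest to the hMeDIP threshold were alike on either side of it. The 5 members just inside it had hMeDIP ratios of 3.002 to 3.04, with 61 to 87 hMeDIP reads, 14 to 23 input reads and MeDIP ratios of 0.731 to 3.85. The 5 bins just outside had hMeDIP ratios of 2.994 to 2.999, with 63 to 75 hMeDIP reads, 15 to 19 input reads and MeDIP ratios of 0.865 to 2.96. Of these, 3 members and 2 bins outside were one-sided. The bins of both lists held more input reads than most members, which had a median of 6 and a 90th percentile of 10. They are therefore not typical of members near the threshold. The number of members moved with the settings, to 26565 with a pseudocount of 0.1 RPM and 958 with 1 RPM, and the summed MeDIP value moved to between 2.52-fold and 8.46-fold.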

How the data were processed

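The authors deposited 1 aligned read of 35 bp per line. The submitters' processing notes name BWA 0.5.8 as a tool and mm9 as the genome build. Each deposited line carries a count of 1 in column 5. The sources used here do not give what column 4 (0 or 1) records or how duplicate reads were treated.

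Reads were assigned by midpoint to 1 kb bins and scaled to RPM. The median autosomal bin held 7 input reads, so a ratio of 3 rests on few reads. Counting, shares and exact intervals were computed with Python 3.11.15, NumPy 2.4.6, pandas 2.3.3 and SciPy 1.17.1 and tested on simulated data. Strand shares used bins with at least 20 hMeDIP reads, or 10 reads in the other libraries. The bins called captured had a ratio of 3 or more in at least 1 eluate. With 1 library per group no test was made. Members, groups and settings were chosen with earlier results of these data known, and 3 alternatives (20 reads per bin, strands over 3 bins, no eluate read) after the strand values were seen. Named bins were the 10 highest in hMeDIP, the 5 lowest and 5 highest in MeDIP and the 5 most one-sided (all also among the 10), with at least 5 input and 20 hMeDIP reads, the 5 longest runs, the bins next to the threshold and the chromosomes with the 3 highest and 3 lowest shares. Not all bins of each list are printed.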

Additional observations from a re-analysis of the deposited data

Results flagged for a closer look

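Chromosome X was outside the rule for members and was examined separately. On it, 85 of 142638 bins with a read met the same thresholds (0.0596%), and input held 410 reads over them. Of the 85 bins 77 were one-sided in hMeDIP (90.6%, 82.3 to 95.8), and MeDIP was 5.92-fold over input (5.30 to 6.63). The input came from another line than the enriched libraries, and the part of this in the values was not tested.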

How the results depend on the processing

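No paired analysis was possible because each group had 1 library. In all 19 settings that gave both shares, the one-sided share was higher in members than in captured bins, by 44.0 to 63.5 percentage points. The levels and counts moved with the settings, and apart from fewer or other reads by construction the cause was not tested.

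The number of members was 26565 with a pseudocount of 0.1 RPM and 958 with 1 RPM, 24746 at an hMeDIP ratio of 2 and 496 at 5, 53 with both eluates below 0.5, 1840 in 2 kb bins, 2694 with at least 5 input reads, 2529 with the median ratios set to 1, and 1096 without any eluate read. The MeDIP value of the members was 2.83-fold and 6.29-fold with these pseudocounts, 2.52-fold and 8.46-fold at these hMeDIP ratios, 2.61-fold with eluates below 0.5, 6.22-fold in 500 bp and 3.45-fold in 2 kb bins, 3.98-fold with 5 input reads, 2.92-fold with medians set to 1, 3.77-fold with libraries thinned to the smallest, 3.80-fold with input and 4.12-fold with hMeDIP split for calling and measuring, and 5.17-fold without eluate reads. The share of members at a MeDIP ratio of 3 or more was 26.6% and 23.4% with the pseudocounts, 5.29% and 67.9% at the hMeDIP ratios, 7.55% with eluates below 0.5, 18.3% with medians set to 1, 16.2% with thinned libraries, 23.4% and 18.1% with input and hMeDIP split, and 19.3% without eluate reads. The pseudocounts, medians, thinning and split input also change the MeDIP ratio itself. The share over all autosomal bins was not computed for them.

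The one-sided share of members was 74.1% and 90.6% with the pseudocounts, 71.6% and 94.8% at the hMeDIP ratios, 92.5% with eluates below 0.5, 90.1% in 500 bp and 71.0% in 2 kb bins, 83.3% with medians set to 1, 83.2% with thinned libraries, 83.7% with hMeDIP split, 56.1% at a limit of 90%, 83.1% with 40 hMeDIP reads, 83.1% with 20 reads drawn, 61.3% over 3 bins and 83.5% without eluate reads. That of captured bins was 36.03% with a pseudocount of 1 RPM, 24.03% and 50.8% at the hMeDIP ratios, 37.7% in 500 bp and 19.97% in 2 kb bins, 27.2% with 5 input reads, 36.03% with thinned libraries, 33.7% with hMeDIP split, 10.1% at 90%, 30.9% with 40 reads, 34.9% with 20 drawn and 14.4% over 3 bins. The share of members with a captured bin within 5 kb was 49.5% and 20.1% with the pseudocounts, 27.6% and 47.2% at the hMeDIP ratios, 28.3% with eluates below 0.5, 37.8% in 500 bp and 19.8% in 2 kb bins, 37.1% with 5 input reads, 44.2% with medians set to 1, 34.7% with thinned libraries, 36.5% and 31.3% with input and hMeDIP split, 36.1% with reads shifted by 75 bp and 21.99% without eluate reads. It was 8.21% within 1 kb and 65.7% within 20 kb. The pseudocounts, bin sizes, medians, thinning, split input and shifted reads also change which bins count as captured. The share over all autosomal bins was not computed for these settings. Their values can therefore not be read against the 29.1% of the main setting.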

Other observations

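One-sided strands were not confined to the members. Over all autosomal bins with at least 20 reads of the library in question, 37.4% of 223155 bins were one-sided in hMeDIP and 45.8% of 67143 in MeDIP. In the 600 mM eluate the share was 2.36% of 94347 bins, in the 800 mM eluate 0.752% of 57697 and in input 0.366% of 33351.

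The order by the larger eluate ratio was also present in bins that were not rich in 5hmC signal. With at least 20 hMeDIP reads and an hMeDIP ratio below 3, the one-sided share was 62.8% (61.3 to 64.2) of 4109 bins in which the larger eluate ratio was under 0.5. It was 54.0% between 0.5 and 1, 37.4% between 1 and 1.5 and 14.7% (12.7 to 16.9) of 1170 bins at 8 or more. Here too the step under 0.5 holds only bins with input above 0.5 RPM. Of the input reads in members, 8.52% (8.18 to 8.87) had a 1 in column 4, against 8.45% over all autosomal bins.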
